A study of Mus musculus with 16 samples.

Results

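Expression of 10 genes of the Nodal and activin pathway was followed over 16 arrays of EB5 embryonic stem cells (ESC) and of mesodermal cells made from them. They were Nodal, Inhba and Inhbb among the ligands, Lefty1, Lefty2, Dand5 and Cer1 among the antagonists, the coreceptor Tdgf1, the receptor Acvr2b and the nuclear cofactor Foxh1. Every probe set whose platform annotation names 1 of these 10 genes alone was taken, which gave 18 probe sets of the 45037 on each array and 10 of the 18193 genes named by such a probe set. The rule uses no measured value, but the 10 genes were proposed with earlier results of these arrays known. The response to 4-hydroxy-tamoxifen (OHT) without and with cycloheximide (CHX) in mesodermal cells and the difference between mesodermal cells and ESC are therefore given for these genes as a description, without a p-value.

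EB5 NERT cells carry the intracellular domain of Notch1 in a form that OHT switches on, under the constitutive pCAG promoter, and EB5 control cells carry the pCAG vector without it. NERT ESC in ectodermal differentiation medium (ESCe, no FCS) gave 1 array without OHT and 1 with OHT, and so did NERT and control ESC in mesodermal differentiation medium (ESCm, 1% FCS) and control mesodermal cells. NERT mesodermal cells, differentiated on collagen IV for 4 d according to the labels, were read on 2 arrays in each of 4 states: untreated, OHT alone, CHX alone, and both agents. OHT was given at 1 µM for 4 h and CHX, which blocks protein synthesis, at 50 µg/ml, and no CHX was given to ESC or to control cells. Whether the paired arrays came from separate cultures, and how many clones each line stands for, is not given in the sources used here, so a p-value here weighs a change against the scatter of replicate arrays, and that scatter may be only technical. All replicate arrays are of NERT mesodermal cells, so comparisons with other cells borrow their scatter. For OHT in ESC and control cells and for the media, unequal OHT changes between media or populations count as scatter too.

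Nodal and the activins, dimers of the Inhba and Inhbb products, are ligands of the TGF-β family. They bind type II receptors such as Acvr2b together with type I receptors, Nodal with the help of the coreceptor Tdgf1 (Cripto), and the signal reaches the nucleus through Smad2 and Smad3, which bind DNA with Foxh1. The Lefty proteins, Cer1 and Dand5 hold Nodal back outside the cell, and Lefty1 and Lefty2 are themselves switched on by Nodal. In the embryo the pathway patterns the primitive streak, mesoderm and endoderm and sets the left-right axis, where Dand5 and Nodal oppose each other next to the node.

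The values are linear expression intensities with array medians of 42.0 to 46.9. The Notch target Hes5 read 23.2 to 25.1 without and 1348 to 1609 with OHT in NERT mesodermal cells, and 20.1 to 21.0 in mesodermal cells of the control line. Nrarp, another Notch target, read 534 and 707 without and 5335 and 5029 with OHT in NERT mesodermal cells, against 87.4 and 80.7 in control mesodermal cells, so the NERT line was above the control line before OHT. In ESC without OHT it was 110.3 and 113 in NERT cells and 54.9 in control cells. The labelled populations were set against markers. The summed level of 6 ESC markers was 17257 to 18357 in ESC and 8106 to 13718 in mesodermal cells without CHX, and all 6 were still read at a mean above 50 there, Zfp42 among them at 659.8 to 2859. In the control line 1 of them, Pou5f1, was higher in mesodermal cells (3449 and 3303) than in ESCm (2490 and 2624). In the NERT line Pou5f1 was lower in mesodermal cells without CHX (1815 to 2576) than in ESC (2854 to 2954). The streak and mesoderm markers Mixl1, Eomes and Fgf8 were higher in uninduced mesodermal cells than in ESCm (adjusted p = 2.2e-05, 9.95e-06 and 3.5e-05 by limma), while Kdr (Flk1) and Mesp1 did not pass the test (adjusted p = 0.68 and 0.95). Pdgfra differed between the lines. Without OHT it read 156 in ESCm and 29.5 in mesodermal cells of the control line. In the NERT line it read 24.6 in ESCm and 90.5 and 154.7 in mesodermal cells. Of the 7 markers listed, 6 were on the array under the names used, and Tbxt (T) was not. Of 8 endoderm markers 4 had a mean of at least 50 in ESC, and their sum was 542 to 1042 in ESC, 549 to 556 in control, 479.6 to 608 in NERT mesodermal cells without and 596 to 844 with CHX, while Afp and Ttr, of visceral endoderm, stayed below 50 on every array. The sum of 3 trophoblast markers was 68.4 to 155 in ESC, 257 to 307 in control, 352 to 758 in NERT mesodermal cells without and 322 to 444 with CHX. Of these, Elf5 stayed below 50, whereas Cdx2, which the posterior streak expresses too, read 210.1 to 373 and Krt7 129 to 403 in NERT mesodermal cells without CHX. In bulk cells, fewer cells of a type and less RNA per cell cannot be told apart.

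Of the 18 probe sets, 13 reached a mean of 50 in at least 1 condition, and these read 8 of the 10 genes. The 5 others stayed below 50 on every array and were not tested: both probe sets of Cer1 (3.47 to 32.2), both of Inhba (1.00 to 40.1) and 1 of the 3 of Acvr2b (4.73 to 28.1). Levels of different genes are not compared, since each probe set has its own response. A change is the difference in log2(value + 25), which understates the change of weak genes, and a ratio against a mean below 25 is given against 25 as at least that large.

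**Figure D1:**
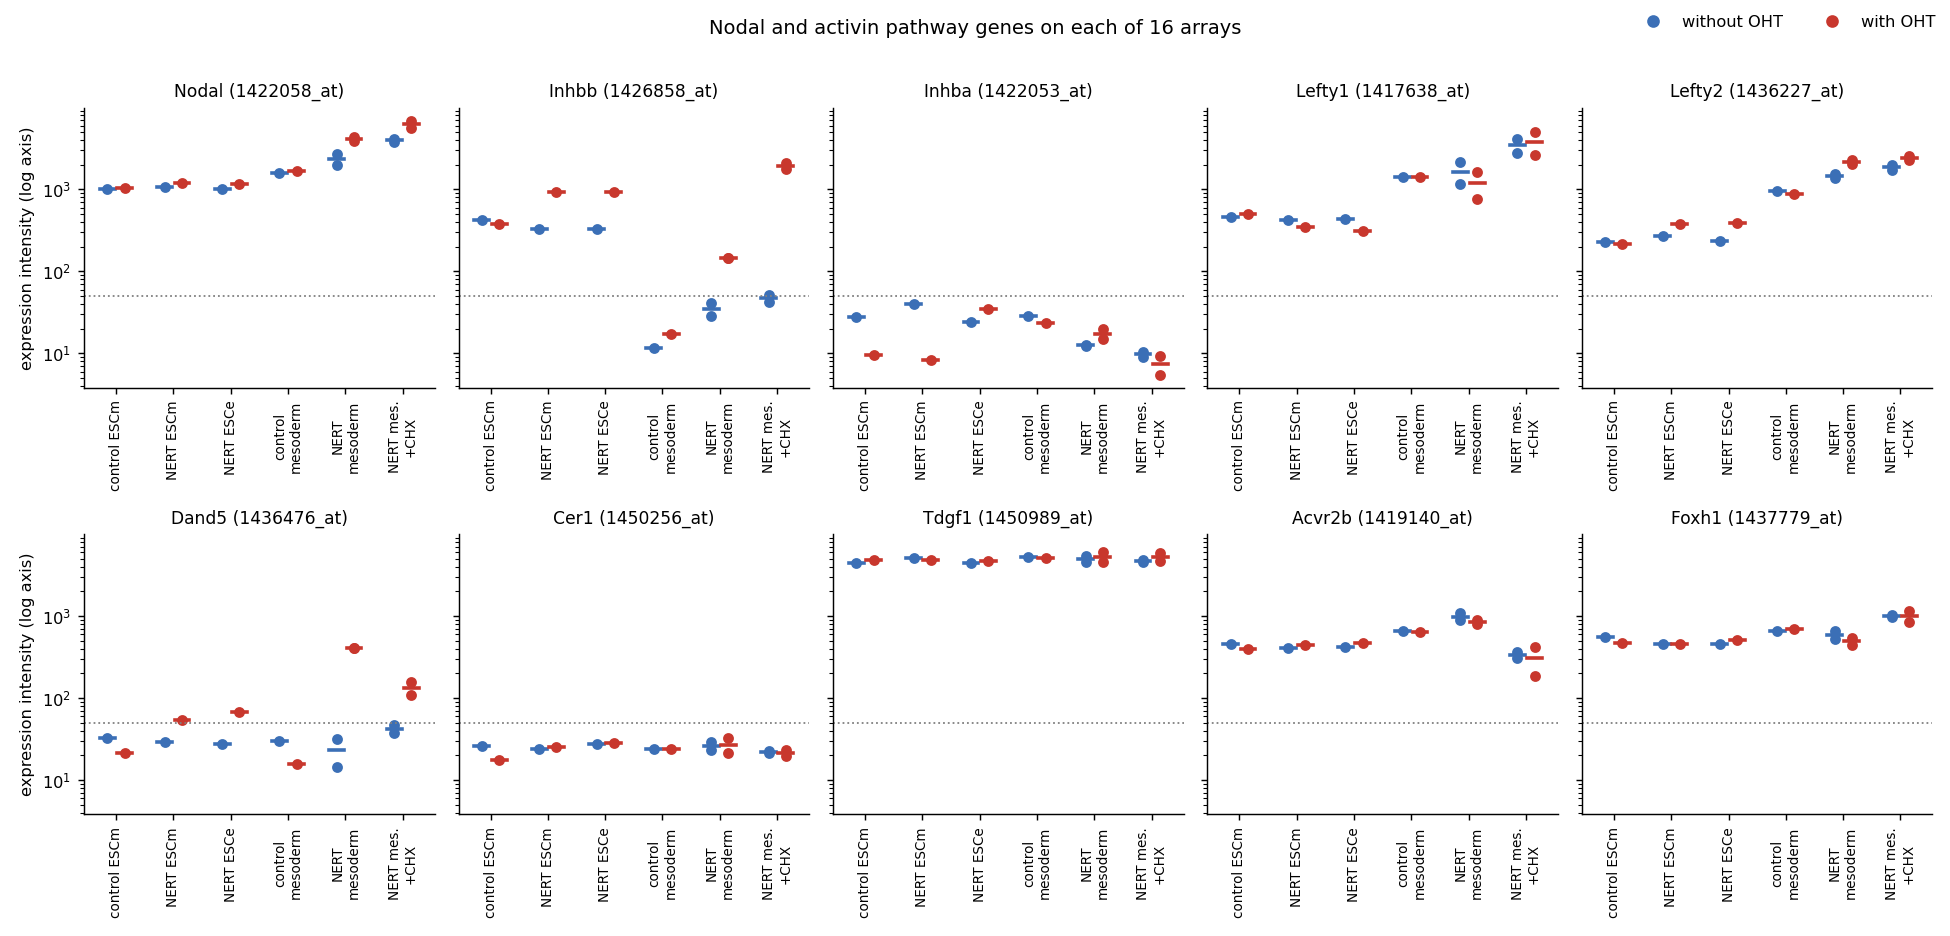
Expression intensity of each gene, read from its strongest probe set, on all 16 arrays (log axis), without OHT in blue and with OHT in red. Each point is 1 array, the bar is the mean of the condition and the dotted line is the value of 50 used as filter. Dand5, Inhbb, Lefty2 and Nodal have the red above the blue points within each of the 4 NERT settings. Tdgf1 is level throughout, and Inhba and Cer1 stay under the line.

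Nodal, the ligand, was read in every population and was lowest in ESC. By its stronger probe set (1422058_at) it read 1008 to 1190.4 on the 6 ESC arrays, 1578 and 1688 in control mesodermal cells, and 2703 and 2011 in uninduced NERT mesodermal cells. With OHT the NERT mesodermal cells read 4381 and 3899.9. With CHX they read 3816 and 4084 without OHT and 5587 and 6911 with OHT, the highest values of this probe set. Induced and uninduced arrays did not overlap in either mesodermal setting. The log2 change with OHT was 0.82 (SE 0.17) without CHX and 0.65 (SE 0.17) with CHX, 1.76-fold and 1.58-fold.

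The other Nodal probe set (1422057_at) gave the same order without CHX, with 405 to 608 in ESC, 874 and 869 in control mesodermal cells, 1314 and 1024 in uninduced and 2524 and 2513 in induced NERT mesodermal cells. With CHX it read 727 and 1337 without OHT and 1307 and 2488 with OHT, so that these groups overlapped and the highest values were those with OHT alone. The log2 change with OHT was 1.10 (SE 0.32) without CHX and 0.85 (SE 0.32) with CHX. Across the 12 condition means both probe sets ran together (r = 0.93, a description over conditions that share arrays and line).

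Inhbb encodes the activin βB chain. Its stronger probe set (1426858_at) spanned 11.8 to 2108. In uninduced ESC it read 419.8 in the control line, 326 in NERT ESCm and 329.8 in NERT ESCe, and with OHT 382, 931 and 938. NERT ESC thus had more Inhbb with OHT in both media, whereas the control line had not. In mesodermal cells the gene was near background. The control line read 11.8 and 17.1, and uninduced NERT cells 28.9 and 41.6. OHT brought it to 145 and 144, a log2 change of 1.50 (SE 0.18) or 4.10-fold. In the presence of CHX it went from 51.9 and 42.0 to 1766 and 2108, a log2 change of 4.77 (SE 0.18) or 41.2-fold, and CHX alone changed it by 0.26 (SE 0.18, adjusted p = 0.30). The difference between both OHT changes was 3.27 (SE 0.26).

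The second Inhbb probe set (1426859_at) did not follow this. It lay between 47.7 and 110.5 on all arrays, with 79.0 and 104 without and 68.5 and 79.6 with OHT in NERT mesodermal cells, and with 47.7 and 71.8 without and 110.5 and 99.2 with OHT under CHX. Its log2 changes were -0.23 (SE 0.19) and 0.63 (SE 0.19). Each statement on Inhbb below therefore rests on 1426858_at alone.

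Lefty1 and Lefty2 are secreted antagonists that lie close together on chromosome 1 (GRCm38.p6, chr1:180935022-180938401 and chr1:180893108-180899107). Both were higher in mesodermal cells than in ESC, but they behaved differently under OHT. Lefty2 (1436227_at) read 215 to 267 in the 4 uninduced or control-line ESC arrays, 379 and 388 in induced NERT ESC, 961 and 881 in control mesodermal cells, and 1521 and 1368 in uninduced and 2286 and 2013 in induced NERT mesodermal cells. With CHX it was 1711 and 1999.9 without and 2561 and 2299 with OHT. Every induced array exceeded its uninduced counterparts, with log2 changes of 0.56 (SE 0.16) without and 0.39 (SE 0.16) with CHX.

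Lefty1 (1417638_at) read 312 to 502 in ESC and, in mesodermal cells of the control line, 1403 and 1408. In NERT mesodermal cells it was 2139 and 1149.7 without OHT, 1634 and 766 with OHT, 2805 and 4137 with CHX, and 2634 and 4963 with CHX and OHT. Induced and uninduced arrays overlapped in both settings (log2 changes -0.48 and 0.09, SE 0.40 each). The spread lay between the numbered replicates: replicate 1 was 1.86-fold and 2.13-fold above replicate 2 without CHX, but 0.68-fold and 0.53-fold of it with CHX. The ESC marker Zfp42 ran against Lefty1 in the arrays without CHX, with 781 and 1589 in uninduced and 659.8 and 1406 in induced NERT cells. With CHX Zfp42 ran in the same direction as Lefty1, with 2095 and 2422 in uninduced and 1977 and 2490 in induced NERT cells. The part of Zfp42 in the spread of Lefty1 was not tested.

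Dand5 (Cerl2) binds and blocks Nodal outside the cell. Its probe set (1436476_at) was below 50 on all 10 arrays of control cells or of NERT cells without OHT, from 14.3 to 47.2. NERT mesodermal cells read 14.3 and 32.1 without and 406 and 404 with OHT, a log2 change of 3.18 (SE 0.22) or at least 16.2-fold. With CHX they read 37.8 and 47.2 without and 110.2 and 158 with OHT, a log2 change of 1.22 (SE 0.22) or 3.16-fold. The induced level in the presence of CHX was thus below that without CHX, and the difference between the OHT changes was -1.96 (SE 0.31). NERT ESC had 29.0 and 53.7 in ESCm and 27.7 and 68.0 in ESCe. In the control line Dand5 was lower with OHT on both pairs of arrays, 32.2 and 21.7 in ESCm and 29.7 and 15.7 in mesodermal cells, all near background. Cer1, a related antagonist, did not exceed 32.2 under any condition.

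The bases before the transcription start of the 2 genes with the largest OHT changes are shown with those of Hes5, since Notch1 acts through the DNA-binding protein RBP-J. The core of its binding motif was searched as TGGGAA and GTGGGAA, the latter containing the former, and the Foxh1 motif as ATCCACA, each on both strands, in the 250 bases before the start (RefSeq, GRCm38.p6). Such a window was found for 7 of the 10 genes (not Lefty1, Lefty2 and Foxh1), and none of these 7 held any of the 3 motifs. Hes5 held GTGGGAA at -83 to -77 and, on the other strand, at -226 to -220, which are in capitals below. Among 32851 windows of all genes 21.6% held TGGGAA, 5.42% GTGGGAA and 2.78% ATCCACA. A missing match says only that these letters are not in this window. The Dand5 window lies inside the annotated span of the gene (chr8:84815405-84832265), so it belongs to 1 of its starts. The windows are, 5′ to 3′ on the strand of the gene:
Dand5, chr8:84822824-84823073, minus strand: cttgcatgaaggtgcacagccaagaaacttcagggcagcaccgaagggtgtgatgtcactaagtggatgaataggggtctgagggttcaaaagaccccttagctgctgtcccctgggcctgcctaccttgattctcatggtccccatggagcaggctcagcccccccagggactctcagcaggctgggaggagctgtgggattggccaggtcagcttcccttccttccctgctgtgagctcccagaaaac
Inhbb, chr1:119422249-119422498, minus strand: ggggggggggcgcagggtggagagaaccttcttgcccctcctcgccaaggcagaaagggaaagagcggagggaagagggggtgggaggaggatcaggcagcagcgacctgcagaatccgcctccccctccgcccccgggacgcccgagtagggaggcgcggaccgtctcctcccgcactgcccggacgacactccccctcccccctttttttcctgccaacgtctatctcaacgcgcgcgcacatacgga
Hes5, chr4:154960673-154960922, plus strand: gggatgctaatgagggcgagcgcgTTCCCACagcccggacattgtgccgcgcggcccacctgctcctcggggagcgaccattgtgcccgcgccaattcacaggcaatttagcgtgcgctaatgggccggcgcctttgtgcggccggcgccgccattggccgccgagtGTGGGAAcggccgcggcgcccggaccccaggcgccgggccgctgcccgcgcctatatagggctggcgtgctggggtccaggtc
The Inhbb window is 68.0% G or C with 21 CpG dinucleotides and that of Dand5 58.0% with 1, against medians of 52.4% and 6 over all windows.

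Tdgf1, the coreceptor of Nodal, was strongly and evenly read (1450989_at, lowest 4410.1, median 4792, highest 5964). Acvr2b, a type II receptor for activin and Nodal, was read by 2 probe sets above the filter. By 1419140_at it was 392 to 466 in ESC, 658 and 637 in control mesodermal cells, and 1078 and 893 without and 904 and 810.4 with OHT in NERT mesodermal cells. With CHX it was 308 and 364 without OHT and 184 and 425 with OHT. By 1439856_at the same populations read 208 to 263, 334 and 303, 529.6 and 420.4, 441 and 414, 148 and 102, and 79.6 and 141. Both probe sets thus had their highest values in NERT mesodermal cells without CHX and their lowest with CHX.

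Foxh1, which brings Smad2 and Smad3 to DNA, was read by 3 probe sets between 129 and 1154. They did not run together: across the 12 condition means 1422212_at and 1422213_s_at had r = 0.94 with each other and r = -0.52 and -0.51 with 1437779_at (a description). The largest change of a Foxh1 probe set with OHT in a NERT setting was 0.23 (SE 0.23, 1422213_s_at) on the log2 scale.

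With the Benjamini-Hochberg threshold of 0.05 over 23971 probe sets, limma called 2 of the 13 member probe sets with OHT in NERT mesodermal cells, Dand5 and Inhbb, both higher, where 0.893% of all probe sets were called. With CHX it called the same 2, where 0.617% were called. For the difference of the changes it called Inhbb, where 0.025% were called. These 3 contrasts were in view when the genes were proposed, so nothing is read from the counts. In this fit both Dand5 and Inhbb (1426858_at) also passed the filter only through conditions with OHT. The Inhbb means without OHT were 35.2 without and 47.0 with CHX. Dand5 with CHX was lost in 5 of the 8 fits without 1 array, with a change of 1.12 without the first uninduced CHX array, and Inhbb without CHX was lost without the first uninduced array, with a change of 1.35. The stronger Nodal probe set, not called here, passed without either of the CHX and OHT arrays (change 0.82 in both). The 4 NERT settings were mesodermal cells without and with CHX, ESCe and ESCm. In all of them every induced array was above every uninduced array for 4 of the 13 probe sets, against 2.61% of all probe sets. These were Dand5, Lefty2, Inhbb (1426858_at) and Nodal (1422058_at), and none was below throughout, against 1.18%. The mesodermal settings were in view when the genes were proposed, and Dand5 passed the filter only through conditions with OHT. Nothing is therefore read from this count either.

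**Figure D2:**
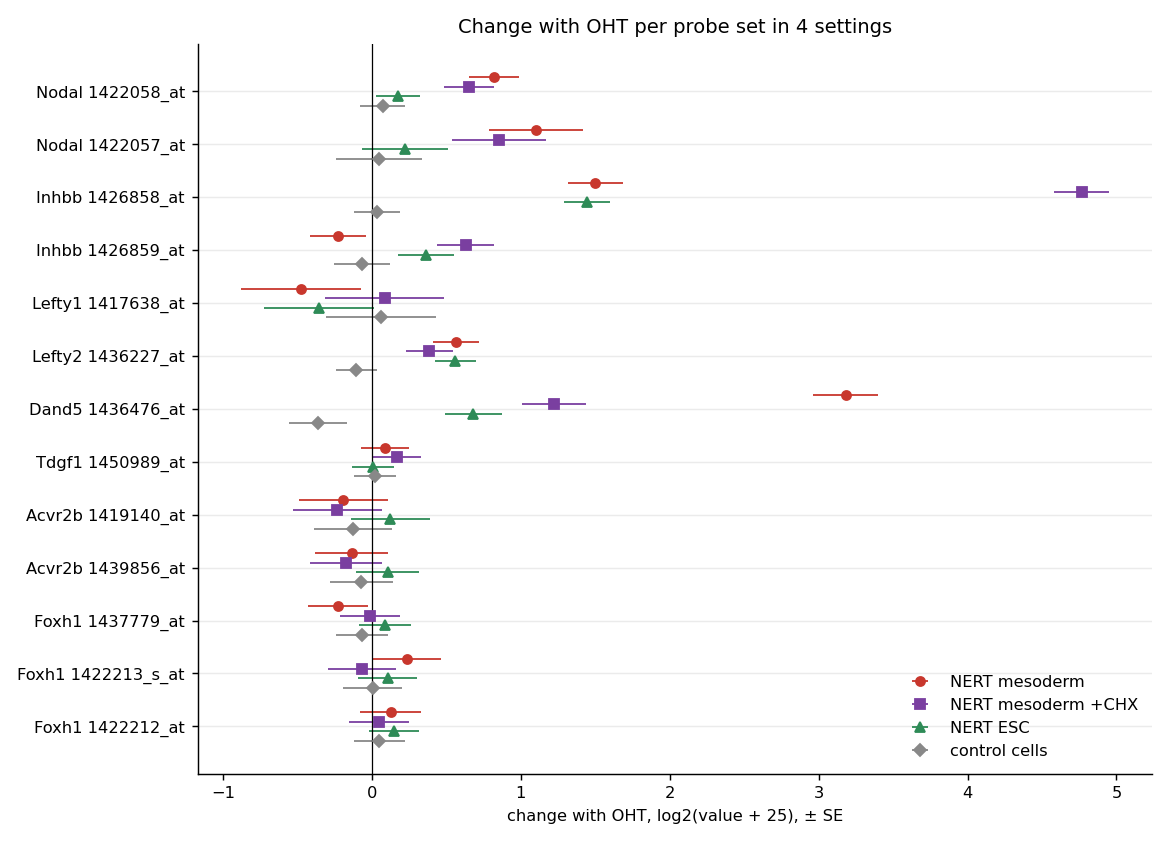
Change with OHT on the log2(value + 25) scale for the 13 tested probe sets, with the standard error of the limma fit, in NERT mesodermal cells without and with CHX, NERT ESC (mean of both media) and control cells (mean of both populations). Inhbb (1426858_at) reaches 4.77 with CHX and Dand5 3.18 without CHX, and the control cells lie near 0 with Dand5 lowest at -0.36.

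In ESC, NERT cells of both media gave 1 change with OHT, from 4 arrays. Inhbb rose by 1.44 (SE 0.16, 2.85-fold, adjusted p = 0.00064 in the limma fit of all 16 arrays) and was the member called, 1 of 13, where 0.538% of 25847 probe sets were called. The ESC change is part of the comparison with mesodermal cells below, which was in view, so nothing is read from this call. Inhbb had this change in both media. With OHT it was 2.85-fold higher in ESCm and 2.84-fold in ESCe, 1 pair of arrays each. Lefty2 had a change of 0.56 (SE 0.14, adjusted p = 0.14) and Dand5 of 0.68 (SE 0.19, adjusted p = 0.25), and neither passed. The stronger Nodal probe set had 0.18 (SE 0.15, adjusted p = 0.996). The change of Dand5 in NERT mesodermal cells without CHX exceeded that in NERT ESC by 2.50 (SE 0.27). Limma called this difference for Dand5 alone, 1 of 13, where 0.031% of all probe sets were called, and the genes were proposed with this contrast in view. For Inhbb (0.06, SE 0.22) and Lefty2 (0.003, SE 0.19) the same difference was below 1 SE. The median change of the 13 probe sets in NERT ESC was 0.15, and that of all probe sets 0.06.

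In control cells OHT changed none of the members by the limma test. No member was called, where 0.0% of 25847 probe sets were called, and no member had an unadjusted p below 0.05, which 308 of all probe sets had. Under the criteria of the study (at least 2-fold and a difference above 50 between means) no member and 3 probe sets passed. Here and below its further criterion, a present call, was left out. The means were those of the comparison, here over both control populations, whereas the study compared samples of the same population. Inhbb had a change of 0.03 (SE 0.16) and Dand5 of -0.36 (SE 0.19). The medium made no detectable difference either: between NERT ESCe and ESCm no member was called, where 0.0% of probe sets were called, none had an unadjusted p below 0.05, which 768 probe sets had, and none passed the criteria of the study, which 5 probe sets passed.

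CHX alone, in uninduced NERT mesodermal cells, moved the receptor down and split the probe sets of the ligand and the cofactor. Acvr2b fell by 1.48 (SE 0.30, 2.93-fold, adjusted p = 0.0039) and by 1.74 (SE 0.24, 3.80-fold, adjusted p = 0.00053) with its 2 probe sets, and no array with CHX reached one without. Nodal rose by 0.75 (SE 0.17, 1.68-fold, adjusted p = 0.0070) by 1422058_at, from 2703 and 2011 to 3816 and 4084, but had -0.23 (SE 0.32, adjusted p = 0.61) by 1422057_at. Foxh1 rose by 0.76 (SE 0.20, adjusted p = 0.015) by 1437779_at, from 649 and 523 to 976 and 1029, and fell by 0.66 (SE 0.20, adjusted p = 0.030) by 1422212_at, from 293 and 226 to 129 and 183. The third Foxh1 probe set had -0.59 (SE 0.23, adjusted p = 0.072). Lefty1 had 1.11 (SE 0.40, adjusted p = 0.056), Lefty2 0.35 (SE 0.16, adjusted p = 0.11) and Dand5 0.51 (SE 0.22, adjusted p = 0.096).

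In all, 5 of 13 member probe sets were called with CHX, 2 higher and 3 lower, where 32.8% of all probe sets were called, so the share of the members is near that of the array (median change -0.08, against 0.06 over all probe sets). Markers moved with CHX as well: the summed streak and mesoderm markers were 2675 to 3434 without and 911 to 1206 with CHX, the summed ESC markers 8106 to 8570 and 9832 to 13552, and the 3 neuroectoderm markers 207 to 860.5 and 632 to 1340.5, over induced and uninduced NERT arrays. Among the ESC markers Pou5f1 went against their sum, from 2576 and 1815 to 863 and 1357 with CHX in uninduced NERT cells. The part of the markers in the changes of the members was not tested. Both Acvr2b calls stood without any 1 of the 8 arrays. Without the second uninduced array only these 2 were called, with Nodal at 0.54 and Foxh1 at 0.61 (1437779_at) and -0.83 (1422212_at), and without the first uninduced CHX array 3 were called.

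**Figure D3:**
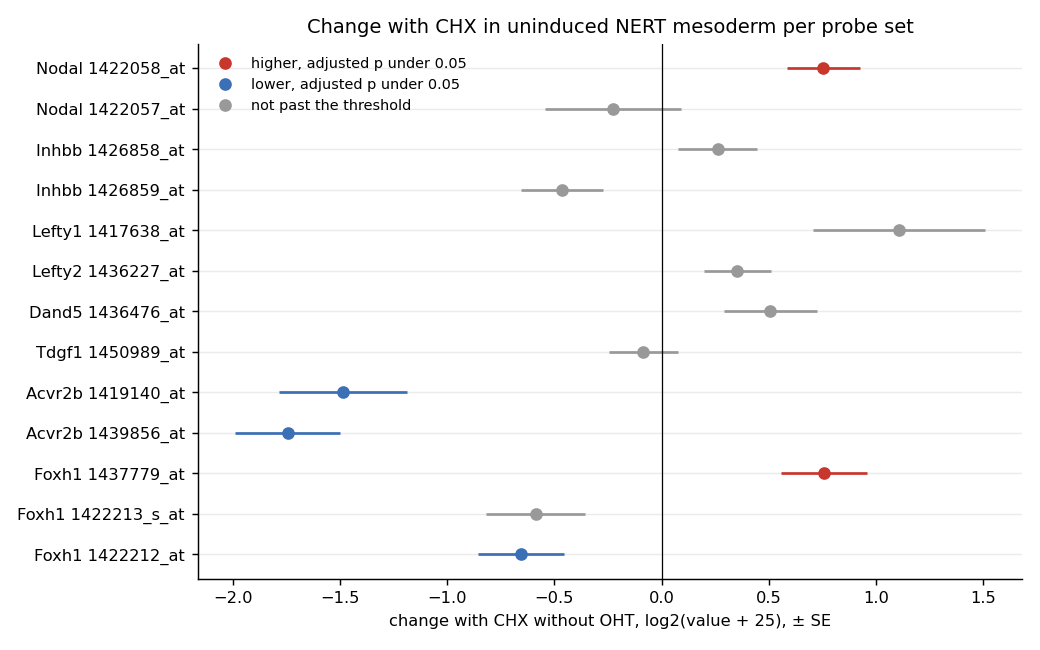
Change with CHX in uninduced NERT mesodermal cells for the 13 tested probe sets on the log2(value + 25) scale with its standard error, 2 arrays each. Both Acvr2b probe sets lie below -1.4, and the probe sets of Nodal and Foxh1 lie on both sides of 0.

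Between the lines, uninduced NERT mesodermal cells were compared with the 1 array of uninduced control mesodermal cells. None of the 13 member probe sets was called, where 1.28% of all were, while 3 had an unadjusted p below 0.05 (3161 of all probe sets had one) and none passed the criteria of the study. These 3 were Nodal (1422058_at, 0.56, SE 0.22, adjusted p = 0.33), Lefty2 (0.57, SE 0.21, adjusted p = 0.27) and Inhbb (0.70, SE 0.22, adjusted p = 0.19), all higher in the NERT line. The summed streak and mesoderm markers moved in the same direction, with 1348 to 1399 in control and 2675 to 3434 in NERT mesodermal cells over arrays without and with OHT, and the summed ESC markers in the other, with 13537 to 13718 in control and 8106 to 8570 in NERT cells. The trophoblast sum and Nrarp, given above, were higher in NERT mesodermal cells too. Their part in these differences was not tested.

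Against ESCm, uninduced mesodermal cells of both lines had more Lefty2 (2.14, SE 0.16, 4.85-fold), Lefty1 (1.70, SE 0.38, 3.46-fold), Nodal (0.87, SE 0.17, and 1.14, SE 0.30) and Acvr2b (0.87, SE 0.28, and 0.79, SE 0.23). Inhbb was lower by at least 14.9-fold (-3.07, SE 0.17) by 1426858_at, whereas its other probe set gave -0.34 (SE 0.18). Tdgf1 differed by 0.11 (SE 0.15) and Dand5 by -0.13 (SE 0.20). This contrast was in view too. Limma called 7 of 13 probe sets, where 24.0% of all were called. The call of Acvr2b by 1419140_at was lost in 6 of the 8 fits without 1 array.

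The rest of the pathway was read from 42 other genes chosen by their role, of which 39 were on the array under the names used and 35 passed the filter in the fit of NERT mesodermal cells, 36 in that of all arrays. With OHT in NERT mesodermal cells 1 of the 35 was called, lower, and none higher, where 1.13% of 12188 genes, each read from 1 probe set, were called. The median change of the 35 was -0.19, against -0.05 over these genes. The gene called was Skil (SnoN), a repressor of Smad-driven transcription, which went from 3180.1 and 2499 to 1740.3 and 1451 (fell by 0.82, SE 0.16, adjusted p = 0.040 by limma). It was also the 1 of 36 called by limma in NERT ESC, where 0.768% of 12763 genes were called. It went from 1609 to 881 in ESCe and from 1686 to 848 in ESCm (fell by 0.91, SE 0.14, adjusted p = 0.0081), and it was 1957 and 1806 without and with OHT in control ESCm. With CHX it had a change of 0.05 (SE 0.16, adjusted p = 0.98), at 6262 and 6165 without and 6806 and 6088 with OHT.

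The mesodermal call of Skil did not hold without any 1 of 6 of the 8 arrays (changes -0.65 to -0.99). It was also lost without the filter, with quantile normalization, with eBayes without trend and with all 16 arrays as 12 conditions (adjusted p = 0.094, 0.074, 0.079 and 0.054 by limma). No array of the ESC contrast was left out. With CHX none of the 35 was called by limma, where 0.796% of 12188 genes were. An unadjusted p below 0.05 was found for 7 of the 35, where 5.89% of all probe sets had one. None of the 35 passed the criteria of the study, which 236 of 23971 probe sets did. Fst (follistatin), which binds activins, read 2337 and 1592 without and 885 and 615 with OHT (change -1.36, SE 0.27, adjusted p = 0.051), and Smad3, the signal transducer, read 455 and 415 without and 611 and 777 with OHT, and 535 and 495 against 901 and 1010.4 with CHX (changes 0.64 and 0.86, SE 0.18 each, adjusted p = 0.19 and 0.082). Neither passed the threshold of limma. In control mesodermal cells, 1 array each, Fst read 729 without and 543 with OHT. By the criteria of the study Fst without CHX passed, as did 336 of 23971 probe sets. With the replicate number as a block, an alternative given below, Fst without CHX passed limma (adjusted p = 0.0029). Fst passed limma without either of the CHX and OHT arrays (adjusted p = 0.0258 and 0.0247, with the change as above).

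**Figure D4:**
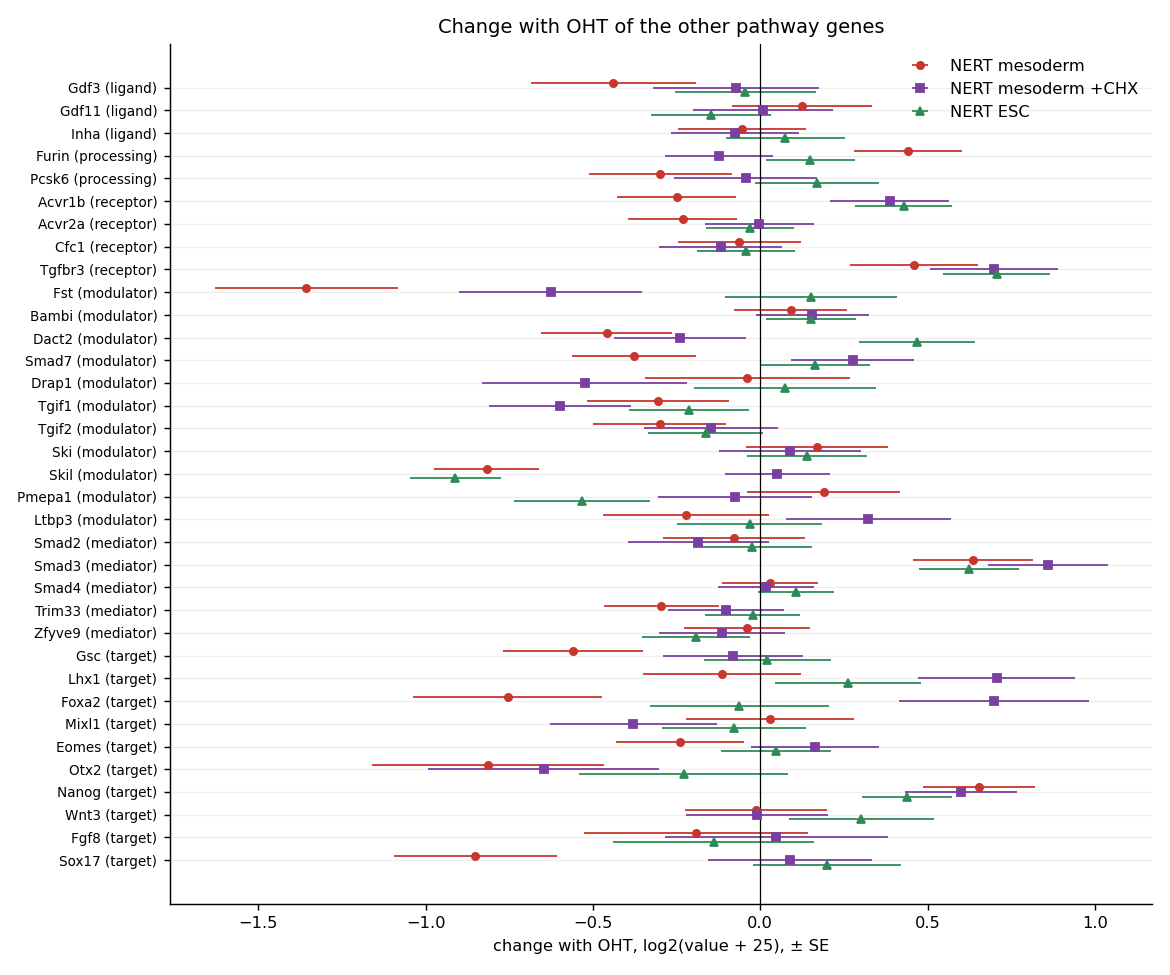
Change with OHT on the log2(value + 25) scale, with its standard error, of the 35 other pathway genes that were tested in NERT mesodermal cells, by role, without CHX, with CHX and in NERT ESC. Skil lies lowest in ESC at -0.91, and Fst lowest in mesodermal cells at -1.36.

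CHX alone changed 19 of the 35, 11 higher and 8 lower. This is 54.3%, against 33.8% of 12188 genes, each read from 1 probe set (median change 0.12, against 0.11). Among the modulators 6 rose and 1 fell of 11. Smad7, the inhibitory Smad, rose by 1.96 (SE 0.18, adjusted p = 6.2e-05), the latent TGF-β binding protein Ltbp3 by 1.18 with its strongest probe set (adjusted p = 0.0049) and Skil by 1.13 (adjusted p = 0.00049), whereas Fst fell by 2.43 (SE 0.27, adjusted p = 0.00016). The second Ltbp3 probe set ran the other way, from 108 and 73.7 to 34.5 and 32.2. Of 10 target genes 6 fell and 2 rose. Mixl1, a streak homeobox gene, fell by 2.93 (SE 0.25, 9.13-fold, adjusted p = 3.7e-05), Lhx1 fell by 2.43 (at least 6.30-fold, adjusted p = 7.2e-05), Fgf8 by 1.64 (adjusted p = 0.0042), Eomes by 1.63 (adjusted p = 0.00020) and Gsc by 1.39 (adjusted p = 0.00079), while Otx2 rose by 1.44 (adjusted p = 0.0096) and Sox17 by 1.02 (adjusted p = 0.0093), the latter by its stronger probe set, as the other read 30.8 and 44.3 without and 44.8 and 42.0 with CHX. Among the receptors Acvr2a, the relative of Acvr2b, rose by 0.97 (SE 0.16, adjusted p = 0.0015), from 355 and 344 to 711 and 709, in the direction opposite to Acvr2b, and Tgfbr3 fell by 0.99 (adjusted p = 0.0032). Trim33, which binds Smad2 and Smad3, rose by 1.20 (adjusted p = 0.00062).

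Of 36 other pathway genes 17 were higher and 1 lower in uninduced mesodermal cells than in ESCm. This is 50.0%, against 26.5% of 12763 genes, each read from 1 probe set (median difference 0.40, against 0.08). Fst was higher by 3.98 (25.7-fold, adjusted p = 5.8e-06), Fgf8 by 3.45 (at least 19.0-fold, adjusted p = 3.5e-05), Mixl1 by 2.81 (12.5-fold, adjusted p = 2.2e-05), Eomes by 2.45 (6.68-fold, adjusted p = 9.95e-06), Wnt3 by 2.04 (at least 3.92-fold, adjusted p = 4.9e-05) and Tgfbr3 by 1.66 (5.36-fold, adjusted p = 8.7e-05). The type I receptor Acvr1b (0.83, adjusted p = 0.0049), Acvr2a (0.79, adjusted p = 0.0036) and the protease Furin, which cleaves proligands (1.00, adjusted p = 0.0012), were also higher, and Gdf3, a ligand of the pathway in ESC, fell by 1.06 (adjusted p = 0.0067). Between the lines, Mixl1 (1.95, 4.22-fold, adjusted p = 0.013 by limma) and Lhx1 (2.52, at least 6.30-fold, adjusted p = 0.0025) were higher in uninduced NERT than in control mesodermal cells, 2 of 36 against 1.68% of the 12763 genes. Control cells with OHT and the comparison of media gave no limma call among the 36, with 0 and 1 of them at an unadjusted p below 0.05 and none past the criteria of the study. Of all probe sets 1.19% and 2.97% had such an unadjusted p.

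The genes whose 12 condition means ran most like a member over 12762 other genes are given as a description. For Dand5 they were Tgm2, 2900052N01Rik and Prkcb (r = 0.97, 0.95 and 0.94), for Inhbb Thoc2, Trib1 and Hnrnpc (r = 0.95, 0.94 and 0.93) and for Nodal 2900026A02Rik, Amotl2 and Asap2 (r = 0.99, 0.98 and 0.98). Lefty2 was nearest to Prom1 and Lefty1 to Tceal8 (r = 0.99 each), Acvr2b to Mea1 and Foxh1 to Zfp729b (r = 0.99 each). For Tdgf1, which hardly varied, the highest r was 0.88.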

How the data were processed

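The authors hybridised RNA to Affymetrix Mouse Genome 430 2.0 arrays and deposited linear expression intensities. Their software was dChip, whose invariant set method took the OHT-treated control mesoderm array as baseline. Conditions were taken from the sample labels and probe sets were named through the platform annotation. Detection calls were not used here. With 25 added, log2 values of probe sets with at least 1 condition mean of 50 or more were tested two-sided in R 4.3.3 (limma 3.58.1, functions lmFit and eBayes, the latter with trend) and adjusted over all probe sets tested by the Benjamini-Hochberg method (threshold 0.05). The 8 NERT mesoderm arrays (23971 probe sets, 4 residual degrees of freedom) gave the changes with OHT and CHX there. All 16 arrays (25847 probe sets) gave the others: an additive fit (6 degrees of freedom) for OHT in NERT ESC, in control cells, and the media, which assumes for a lone array the scatter of the rest, and 12 conditions as groups (4 degrees of freedom) for the lines and populations. The number of arrays limits the precision. The comparison of OHT changes between NERT mesodermal cells and ESC was added after the values had been seen.

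The members, the pathway and marker lists and the tests were chosen with earlier results of these data known. Named are all members, up to 6 other pathway genes per direction and contrast by size of change, genes whose role describes the pathway, and the 3 genes most like each member. A gene is read from its probe set of highest mean. Alternatives were pseudocounts of 5 and 100, no filter, quantile normalization, eBayes without trend, the replicate number as a block, all 16 arrays as 12 conditions, the criteria of the study, and leaving out each of the 8 NERT mesoderm arrays. On simulated arrays with 200 changed probe sets the fits were checked to recover them. Remaining tables and the figures were produced in Python 3.11.15 (pandas 2.3.3, matplotlib 3.10.9).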

Additional observations from a re-analysis of the deposited data

Results flagged for a closer look

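The change of Inhbb (1426858_at) with OHT in NERT mesodermal cells was larger with CHX than without by 3.27 on the log2(value + 25) scale. The change of Dand5 (1436476_at) with OHT without CHX was larger in NERT mesodermal cells than in NERT ESC by 2.50. This second comparison was added after the values had been seen, and it was not refitted under the alternatives or without single arrays. Both genes had been proposed with their mesodermal response known, so both differences are given as a description. No cause was tested.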

How the results depend on the processing

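Most results kept their direction and their side of the threshold. Of 454 values of single genes under the alternatives other than leaving out arrays, 431 did. Of 528 under leaving out arrays, 481 did, in comparisons within NERT mesodermal cells, of the lines, and of mesodermal cells against ESCm. Each value was counted for every array left out, also where its comparison does not use that array. There the change stayed the same and only its p-value could move, so such fits do not test the direction. The number of members called fell from 2 to 1 for OHT with CHX at a pseudocount of 5 and without the filter, where Dand5 was lost, and rose from 1 to 2 for the difference with CHX at a pseudocount of 100 and with the replicate block, where Dand5 was added (-1.33 and -1.96). By the criteria of the study it was 3 in place of 5 for CHX and 4 in place of 7 for mesodermal cells against ESCm. Leaving out 1 array gave 1 to 3 for OHT without CHX, 1 to 2 with CHX, 1 to 2 for their difference, 2 to 7 for CHX and 5 to 7 for mesodermal cells against ESCm, and 0 for the lines. No array of the ESC and control comparisons was left out.

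Signs turned for Inhbb in control cells at a pseudocount of 100 (-0.0209), Skil with CHX and OHT under quantile normalization (-0.0813), and, leaving out 1 array, Lefty1 with OHT (-1.01 to 0.0572), Nodal (1422057_at) with CHX (-0.66 to 0.20) and Skil with CHX and OHT (-0.0292 to 0.131). Nodal (1422058_at) with OHT passed under quantile normalization, and Foxh1 1422213_s_at with CHX did too (adjusted p = 0.027), while Foxh1 1437779_at with CHX did not (0.052). Foxh1 1422212_at with CHX was lost without the filter (0.052). Acvr2b in mesodermal cells against ESCm was lost by 1419140_at at a pseudocount of 5, without the filter and under quantile normalization, and by 1439856_at without the filter. Skil with OHT in NERT mesodermal cells was lost under 4 alternatives (adjusted p = 0.054 to 0.094), Fst with OHT passed at a pseudocount of 100 (adjusted p = 0.035), and Smad3 with CHX and OHT passed under quantile normalization (0.049).

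The replicate numbers are not said to mark a shared culture or day. The 6 correlations between the deviations of same-numbered arrays were all positive, from 0.007 to 0.513, and 4 of them were 0.114 or more, the highest between arrays without and with OHT in the absence of CHX. The block was therefore kept as an alternative. With the replicate block Nodal (1422058_at) and Fst with OHT (the latter at adjusted p = 0.0029) and Lefty1 with CHX (0.044) passed. Counts of all probe sets moved more. For OHT without CHX 214 became 339 with the replicate block, 140 without the filter and 63 to 287 without 1 array. For OHT with CHX 148 became 82 to 611 without 1 array. For the difference 6 became 19 at a pseudocount of 100 and with the replicate block, 11 with all 16 arrays as 12 conditions and 3 without the filter. For CHX 7871 became 3890 to 9363, for OHT in NERT ESC 139 became 117 to 235, and for the lines 332 became 91 to 496 without 1 array and 176 without the filter. Weak signals limit Dand5, Cer1 and Inhba, whose uninduced values lie at background.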
